A study of Mus musculus with 6 samples.

Results

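The imprinted growth genes described here are H19, Dlk1, Peg3, Mest, Cdkn1c, Grb10, Plagl1, Ndn, Gtl2 and Zim1, which were chosen by gene symbol from the heart array, with every probe of each symbol kept. Of these 10 genes, 9 were among the 18138 symbols of the array, with 13 of its 25697 probes. No row carried the symbol Gtl2 (now Meg3) or an older name of it, and that gene has no value here. Expression was measured in 1 heart from each of 6 male mice of strain FVB, kept on the FVB/N background according to the methods, at postnatal day 6, 3 hSRY-ON and 3 hSRY-OFF. In the hSRY-ON mice, human SRY, the testis-determining gene of the Y chromosome, was expressed from the CAG promoter, after Cre protein from a Ddx4-Cre mother had recombined the Signalox-hSRY transgene. The transgene is 1 copy in the H11 locus of chromosome 11, so it stands for a single integration, and the hSRY-ON mice chosen for the arrays did not carry Ddx4-Cre themselves. The study's methods describe hSRY-OFF mice as holding the unrecombined transgene, while its results describe control littermates as having only Ddx4-Cre or no transgene, so the genotype of the control hearts is uncertain. The comparison asked how activated hSRY and its control differed in the heart, and with 1 age on the arrays no decline after birth could be measured.

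Imprinted genes are expressed mainly from the copy inherited from 1 parent, set by DNA methylation laid down in the egg or sperm. Many act on fetal and early postnatal growth, and in rodents a set of them is known to be highly expressed before birth and to fall in many organs, the heart among them, as growth slows. Of the 10 genes, Dlk1, Peg3, Mest, Plagl1 and Ndn are expressed from the paternal copy, and H19, Cdkn1c, Grb10, Gtl2 and Zim1 from the maternal copy, with Grb10 reversed in neurons. The array does not tell the parental copies apart, so each value below is the sum of both.

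Each array gave a mean bead intensity for every probe, and a detection p-value against its negative-control beads. Values are given as normalized log2 intensity, in which a difference of 1 is a doubling, and as log2 fold change, the hSRY-ON mean minus the hSRY-OFF mean. A probe was called when its p-value from limma's moderated test, after Benjamini-Hochberg adjustment across 12970 probes, was under 0.05. Between 47.2% and 51.3% of probes were detected on each array, and mean intensity ran from 631.3 to 938.8, the lowest in hSRY-OFF replicate 3. Arrays correlated at 0.983 to 0.992 within hSRY-OFF, 0.985 to 0.988 within hSRY-ON, and 0.940 to 0.960 between groups. All 9 cardiomyocyte genes on the array passed the detection filter, as did 12970 of 25697 probes, so passing alone does not mark a tissue. Their mean normalized log2 values over all hearts ran from 6.19 for Ryr2 to 15.38 for Myl2 and Myl3. Of the 9 genes, 4 were called lower and 1 higher in hSRY-ON, beside 13.9% and 14.9% of all tested genes.

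The promoters of 8 of the genes were matched in RefSeq on GRCm38.p6, in 12 windows that run from 250 bases before to 50 bases after a start site. Both strands were searched for AACAAT, the core that SRY and its SOX relatives bind, for GGGGCCCC, a palindrome close to the one bound by Plagl1 itself, and for CCATNTT, the core of YY1. AACAAT was in 0 of the 12 windows, beside 10.7% of the 32851 windows of all genes. GGGGCCCC was in the window of Peg3 only, beside 1.08% of all windows, and CCATNTT only in the second window of Grb10, beside 16.1%. The 2 windows with a match are printed here with it in capitals, at position -201 from the start site in Peg3 and -203 in Grb10, and that of Mest follows as the main gene that was not called higher, with no match.
Peg3 (chr7:6730370-6730669, minus strand): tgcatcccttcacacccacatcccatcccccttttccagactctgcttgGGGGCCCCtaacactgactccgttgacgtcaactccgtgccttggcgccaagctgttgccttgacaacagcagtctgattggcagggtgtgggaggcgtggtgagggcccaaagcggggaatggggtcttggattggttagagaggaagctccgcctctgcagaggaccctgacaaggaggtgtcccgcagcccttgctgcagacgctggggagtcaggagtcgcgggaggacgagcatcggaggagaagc
Grb10 (chr11:12027922-12028221, minus strand): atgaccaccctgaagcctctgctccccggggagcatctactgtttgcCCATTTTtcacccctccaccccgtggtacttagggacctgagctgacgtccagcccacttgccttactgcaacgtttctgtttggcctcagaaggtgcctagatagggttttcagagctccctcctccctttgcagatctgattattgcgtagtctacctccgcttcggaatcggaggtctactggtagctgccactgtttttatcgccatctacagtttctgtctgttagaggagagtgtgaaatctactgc
Mest (chr6:30737800-30738099, plus strand): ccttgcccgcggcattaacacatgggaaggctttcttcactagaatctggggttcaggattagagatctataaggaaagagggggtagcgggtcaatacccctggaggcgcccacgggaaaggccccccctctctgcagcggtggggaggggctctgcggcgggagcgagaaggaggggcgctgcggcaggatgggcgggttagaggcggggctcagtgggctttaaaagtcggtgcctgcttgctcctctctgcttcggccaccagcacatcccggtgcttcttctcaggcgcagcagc
A match describes the letters only, and no binding was measured in these hearts. The windows of the imprinted genes held between 1 and 45 CpG dinucleotides in 300 bases, beside a median of 7 over all windows, with the most in the first window of Grb10, where GC content was 80.0%.

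H19 and Mest also hold a microRNA each inside the gene. H19 RNA is the precursor of miR-675 on chromosome 7, and miR-335 lies in an intron of Mest on chromosome 6. Their mature sequences, with the seed in capitals, show that the 4 arms share no seed, and the array did not measure them.
miR-675-5p: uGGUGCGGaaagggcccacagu
miR-675-3p: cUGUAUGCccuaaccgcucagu
miR-335-5p: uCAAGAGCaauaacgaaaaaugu
miR-335-3p: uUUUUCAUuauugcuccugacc

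Of the 13 probes, 10 passed the filter on low signals, and these stood for 8 genes. Peg3, Plagl1, Dlk1, Cdkn1c, H19 and Grb10 were higher in the hSRY-ON hearts, each by 1 probe. That made 6 of 10 tested probes called higher and 0 called lower, where 13.8% of all tested probes were called higher and 13.7% lower, 27.5% in either direction. In the same 6 probes the groups did not overlap, beside 23.6% of all probes with every hSRY-ON heart above every hSRY-OFF heart. Mest, with 3 probes, and Ndn, with 1, were not called. The median log2 fold change of the 10 probes was 0.57, and that of all tested probes was -0.0046. The filter let a probe pass through the group in which it is bright, which was the case for Plagl1. The genes were chosen with earlier results of these data known, so these shares describe the set and do not test it.

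**Figure D1:**
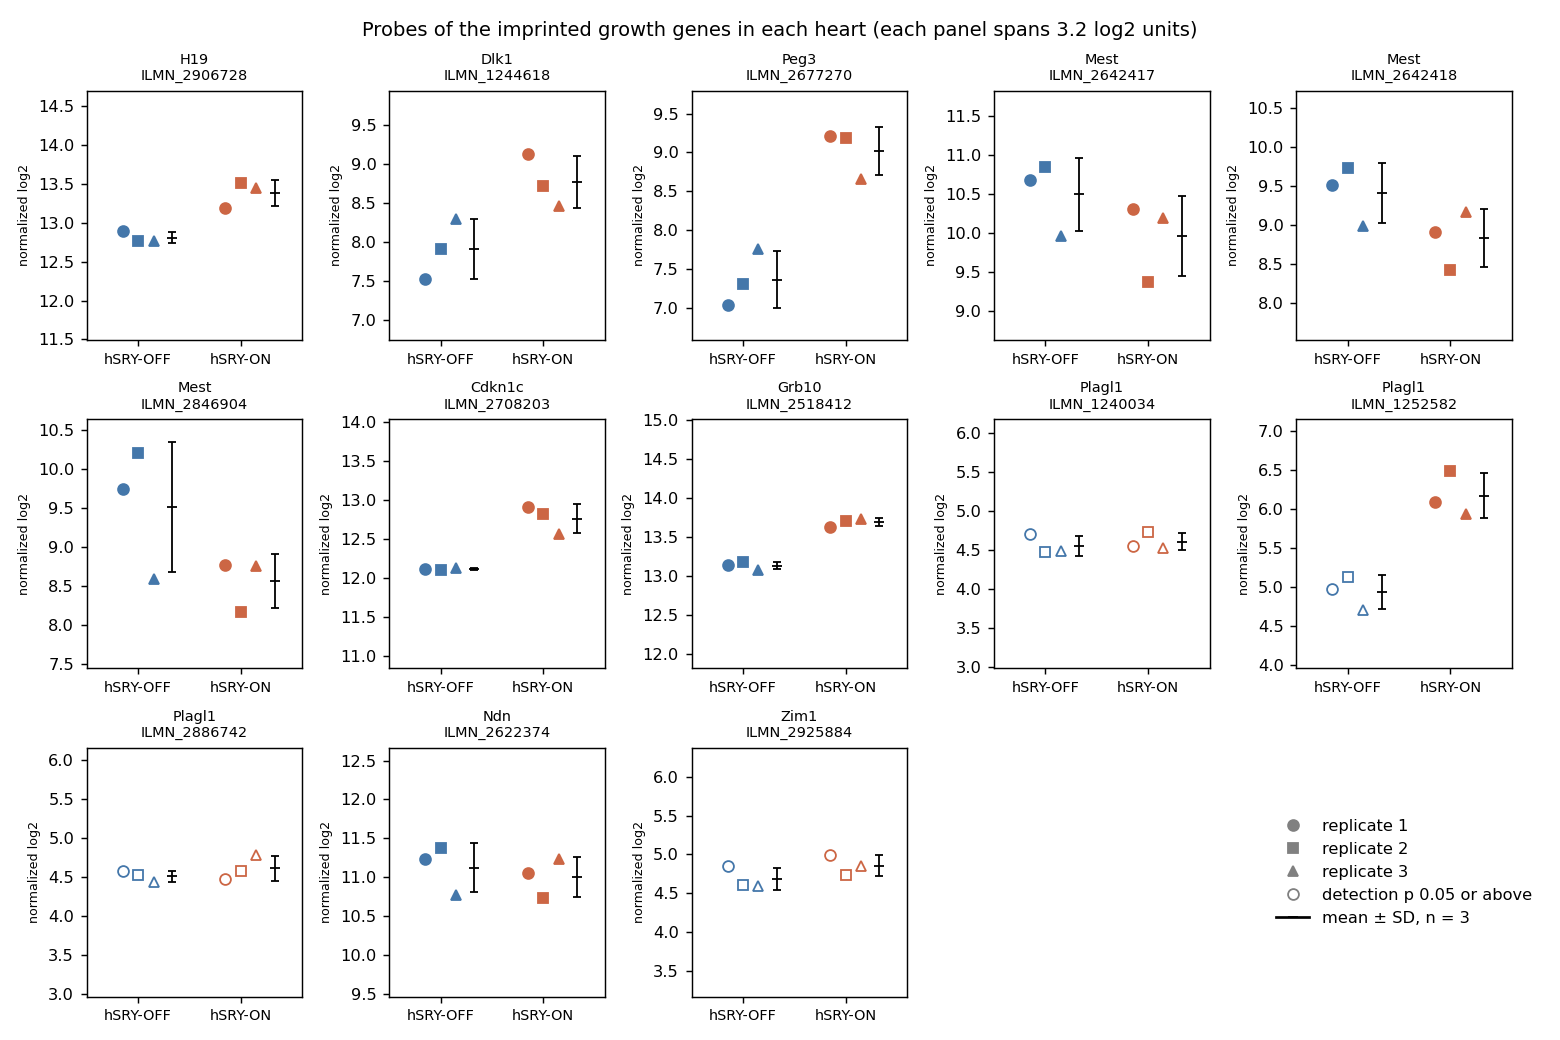
Normalized log2 intensity of all 13 probes in each heart, with hSRY-OFF in blue and hSRY-ON in orange, the replicate by marker shape, and open markers where the detection p-value was 0.05 or above. Bars are mean ± SD of 3 hearts, and the groups stand apart for H19, Dlk1, Peg3, Cdkn1c, Grb10 and 1 of the 3 Plagl1 probes.

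Among the genes of the paternal copy, Peg3 had a larger change than the other tested probes that were above background in both groups. Peg3 encodes a zinc finger protein that takes part in fetal growth, maternal behaviour and p53-linked cell death. It read 7.04, 7.31 and 7.76 in the hSRY-OFF hearts and 9.21, 9.18 and 8.66 in the hSRY-ON hearts, on the normalized log2 scale. The lowest hSRY-ON heart lay above the highest hSRY-OFF heart. The log2 fold change was 1.65 with a standard error of 0.23 (95% confidence interval 1.12 to 2.18, adjusted p = 0.00203), a 3.14-fold difference, and it lay above the middle 95% of all tested probes, which ended at 1.37. It was called under each of the 16 alternative settings, with log2 fold changes between 1.12 and 1.85.

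Plagl1 (also called Zac1) encodes a zinc finger transcription factor that is known to regulate other imprinted genes. Its probe ILMN_1252582 was not well above background in any hSRY-OFF heart, at 4.98, 5.12 and 4.70, and was detected in all 3 hSRY-ON hearts at 6.09, 6.49 and 5.93. Under the background correction used here, the hSRY-ON hearts were therefore at least 1.67-fold higher (adjusted p = 0.00273), which is a bound set by the array's background. The bound depends on that correction, since the log2 fold change was as small as 0.38 among the alternative settings. The other probes, ILMN_1240034 and ILMN_2886742, were detected on 0 of the 6 arrays and were not tested, with values from 4.43 to 4.78. The 3 probes of Plagl1 thus did not agree on whether the gene was measurable.

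Dlk1 encodes a membrane protein with EGF-like repeats that holds back adipocyte differentiation and can act as a non-canonical Notch ligand. It read 7.53, 7.91 and 8.30 in the hSRY-OFF hearts and 9.13, 8.72 and 8.47 in the hSRY-ON hearts. The groups did not overlap, although hSRY-OFF replicate 3 and hSRY-ON replicate 3 were only 0.17 apart. The log2 fold change was 0.86 with a standard error of 0.24 (95% confidence interval 0.31 to 1.41, adjusted p = 0.0325). This call was lost under 7 of 16 settings, among them the omission of hSRY-OFF replicate 1 (0.67, adjusted p = 0.0974), hSRY-OFF replicate 2 (0.86, adjusted p = 0.0819), hSRY-ON replicate 1 (0.68, adjusted p = 0.0968) or hSRY-ON replicate 2 (0.88, adjusted p = 0.0708).

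Mest encodes a hydrolase-like protein that is abundant in embryonic mesoderm and rises as adipose tissue expands. In hSRY-OFF hearts its probe ILMN_2846904 read 9.75, 10.21 and 8.59, and in hSRY-ON hearts 8.77, 8.17 and 8.76. ILMN_2642418 read 9.52, 9.74 and 8.99 against 8.92, 8.43 and 9.17, and ILMN_2642417 read 10.68, 10.85 and 9.96 against 10.31, 9.37 and 10.19. With all 3 probes the groups overlapped, because hSRY-OFF replicate 3 lay among the hSRY-ON hearts. The log2 fold changes were -0.95 (95% confidence interval -1.86 to -0.04, adjusted p = 0.112), -0.58 (-1.15 to 0.00092, adjusted p = 0.125) and -0.54 (-1.26 to 0.18, adjusted p = 0.233), so none was called. Without hSRY-OFF replicate 3, ILMN_2846904 (-1.41, adjusted p = 0.00885) and ILMN_2642418 (-0.79, adjusted p = 0.0451) were called lower, while ILMN_2642417 was not (-0.80, adjusted p = 0.0816). ILMN_2846904 was also called lower without normalization between arrays (-1.05, adjusted p = 0.00583). Probes of 1 gene in the same hearts are not independent of each other.

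Ndn encodes necdin, a MAGE-family protein that restrains cell division and is best known from neurons. It read 11.23, 11.37 and 10.77 in hSRY-OFF hearts and 11.05, 10.73 and 11.23 in hSRY-ON hearts, with the groups overlapping. The log2 fold change was -0.12 with a 95% confidence interval of -0.58 to 0.34 (adjusted p = 0.686). Its sign turned without hSRY-OFF replicate 2 (0.0029) and without hSRY-ON replicate 2 (0.013).

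The 3 tested genes of the maternal copy were all called higher, by 0.56 to 0.65 on the log2 scale. H19, on chromosome 7, is a long non-coding RNA that is abundant in fetal tissue and tied to the restraint of growth. It read 12.89, 12.77 and 12.76 in hSRY-OFF hearts and 13.19, 13.51 and 13.45 in hSRY-ON hearts. Every hSRY-ON heart was higher, with a log2 fold change of 0.58 and a standard error of 0.13 (95% confidence interval 0.28 to 0.88, adjusted p = 0.0149).

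Cdkn1c encodes p57Kip2, an inhibitor of cyclin-dependent kinases that limits cell division in the embryo. The 3 hSRY-OFF hearts were nearly alike at 12.11, 12.10 and 12.13, and the hSRY-ON hearts read 12.91, 12.82 and 12.56. The log2 fold change was 0.65 with a standard error of 0.13 (adjusted p = 0.00904), a 1.57-fold difference. The SD of the hSRY-OFF hearts, 0.015, was among the lowest 0.763% of tested probes.

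Grb10 encodes an adaptor that binds the insulin and IGF1 receptors and damps their signal. It read 13.14, 13.18 and 13.08 in hSRY-OFF hearts and 13.63, 13.71 and 13.73 in hSRY-ON hearts, with no overlap. Its log2 fold change of 0.56 had a standard error of 0.11 (adjusted p = 0.00859), a 1.47-fold difference. Without normalization between arrays the calls of H19 (0.44, adjusted p = 0.397), Cdkn1c (0.53, adjusted p = 0.272) and Grb10 (0.41, adjusted p = 0.441) were lost, while the median of all probes shifted to -0.12. Under the other 15 settings these 3 genes were called.

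Zim1 encodes a zinc finger protein of the Peg3 domain, and its probe ILMN_2925884 was detected on 0 of 6 arrays. Its values of 4.85, 4.61 and 4.59 in hSRY-OFF and 4.99, 4.73 and 4.85 in hSRY-ON hearts were all at background and were not tested.

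**Figure D2:**
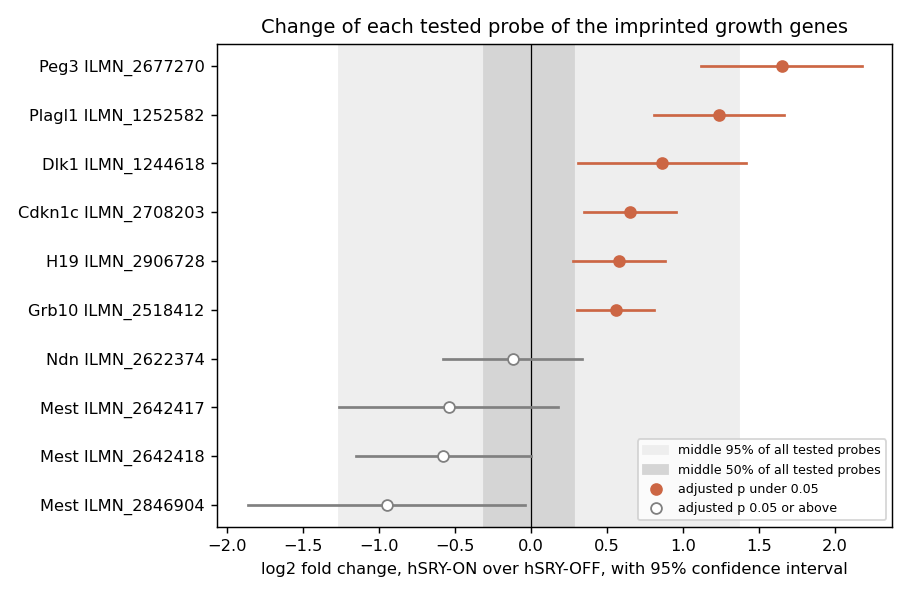
Log2 fold change (hSRY-ON over hSRY-OFF) of the 10 tested probes with the 95% confidence interval from limma, filled where the adjusted p-value was under 0.05, over bands that hold the middle 50% and 95% of all tested probes. The 6 filled points lie between 0.56 and 1.65, the Mest and Ndn points lie below 0, and the Plagl1 value was fitted to a probe that was not well above background in hSRY-OFF.

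Several cell type markers also differed between the groups. In whole hearts a change in the number of cells of a type and a change of RNA per cell cannot be told apart. Each count below is to be read against the 14.9% of all tested genes called higher and the 13.9% called lower, and several lists held few tested genes. Of 9 macrophage genes tested, 7 were called higher in hSRY-ON and 0 lower. Their summed intensity ran from 7092 to 9721 in hSRY-OFF and from 15356 to 16343 in hSRY-ON. Each such sum is of unlogged values, so the brightest genes weigh most, here Lyz and Lyz2. The summed intensity of 7 smooth muscle and pericyte genes ran from 27957 to 33527 and from 41127 to 44810, most of it from Acta2. Tagln (1.81, adjusted p = 0.00766) and Acta2 (0.53, adjusted p = 0.0165) were called higher. In the same list Rgs5 (-0.57, adjusted p = 0.131), Pdgfrb (-0.43, adjusted p = 0.105) and Myh11 (-0.42, adjusted p = 0.114, groups not overlapping) had values below 0 and were not called. For 9 fibroblast genes, 2 of them called higher and 0 lower, the sum ran from 37606 to 40213 and from 39177 to 40561. Lum (-0.43, adjusted p = 0.0908) and Dcn (-0.30, adjusted p = 0.150) were not called, although their hSRY-ON hearts all lay below the hSRY-OFF hearts. Of the others not called, Col3a1 (-0.60, adjusted p = 0.0757) and Dpt (-0.43, adjusted p = 0.242) had values below 0, and Pdgfra, Col1a2 and Col1a1 above 0. Of 4 adipocyte genes tested, 2 were called higher, with sums from 1867 to 2639 and from 1101 to 3656. Ucp1, the uncoupling protein of brown fat, was detected in 1 hSRY-OFF and 3 hSRY-ON hearts, its groups overlapped and its call was lost under 6 settings. Cidea, also an adipocyte gene, had a value of -1.05 (adjusted p = 0.0691), with the hSRY-ON hearts all below the hSRY-OFF hearts. Of 4 skeletal muscle genes, 2 were called lower and 1 higher, and of 2 hepatocyte genes both were called higher, while the defining liver genes Alb and Afp were detected on no array. Of 5 epicardial genes 1 was called higher and 1 lower, 1 of 5 erythroid, 1 of 2 thymocyte and 1 of 2 neuronal or glial genes were called lower, and the 1 lung epithelial gene tested was not called. The thymocyte call, Cd3d, was detected on 3 of 6 arrays and was lost under 8 of the 11 settings that could fit it. Cd163 of the macrophage, Actn3 of the skeletal muscle and Ttr of the hepatocyte calls were each detected in 0 hSRY-OFF and 3 hSRY-ON hearts. Dbh, the neuronal or glial call, was detected in 3 hSRY-OFF and 0 hSRY-ON hearts. Cd163, Actn3, Ttr and Dbh passed the filter only through the group in which they were brighter. The part of these cell types in the values of the imprinted genes was not tested.

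Hearts of the same group differed from each other, and not in the same way for all the imprinted genes. For all 3 Mest probes and for Ndn, hSRY-OFF replicate 3 was the lowest of its group and hSRY-ON replicate 2 the lowest of the other. For Dlk1, Peg3 and Cdkn1c, hSRY-OFF replicate 3 was the highest of its group and hSRY-ON replicate 3 the lowest. In Cdkn1c, hSRY-OFF replicate 3 was only 0.016 above its group mean. H19, Grb10 and Plagl1 were also lowest in hSRY-OFF replicate 3, but not in hSRY-ON replicate 2. In hSRY-OFF replicate 3, Mest ILMN_2846904 lay 1.39 below the mean of the other 2 hearts, and only 0.1% of tested probes lay as low in that heart. The share as low was 3.0% for Mest ILMN_2642417, 5.6% for ILMN_2642418 and 8.6% for Ndn. Dlk1 and Peg3 lay 0.58 above that mean, where 96.0% and 96.1% of tested probes lay no higher. In hSRY-ON replicate 2, the same gap was -0.88 for Mest ILMN_2642417, -0.61 for ILMN_2642418, -0.60 for ILMN_2846904 and -0.40 for Ndn. In the same order, 0.97%, 3.1%, 3.4% and 9.3% of tested probes lay as low in that heart. The SD of the hSRY-OFF hearts stood at the 99.8th percentile of tested probes for Mest ILMN_2846904 and at percentile 7.2 for Grb10. In hSRY-OFF replicate 3 the median gap was 1.13 for erythroid and 0.78 for adipocyte genes, against 0.038 over all tested genes, and its part in the Mest and Ndn values was not tested.

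**Figure D3:**
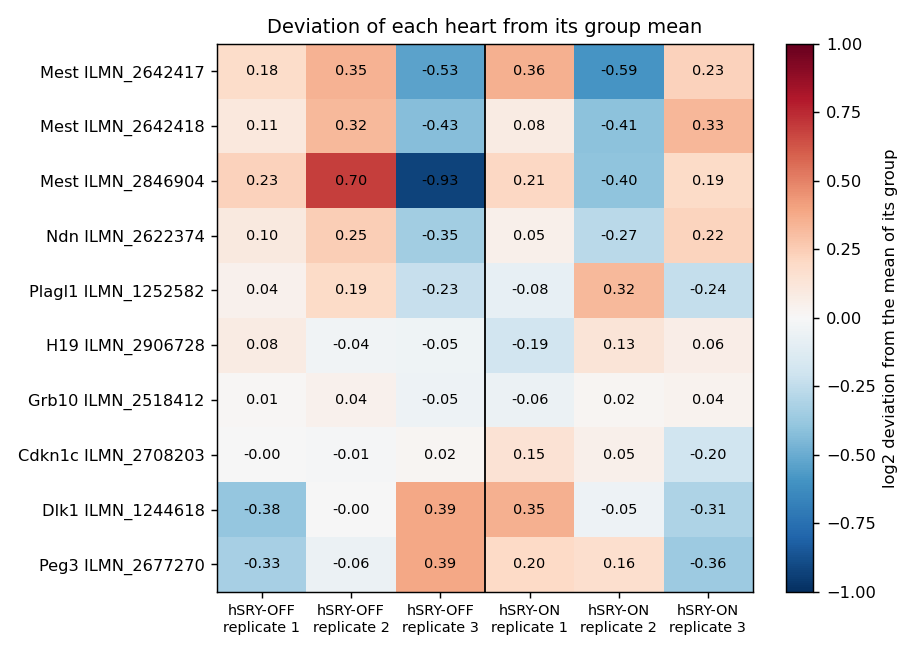
Deviation of each heart (columns) from the mean of its own group for the 10 tested probes (rows), in log2 units, red above and blue below the mean. Mest and Ndn share low values in hSRY-OFF replicate 3 and hSRY-ON replicate 2, Dlk1 and Peg3 share high values in hSRY-OFF replicate 3, and Grb10 and H19 deviate by less than 0.20 in every heart.

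To set these genes beside other imprinted genes, 66 of them were listed, of which 53 were on the array and 26 were tested. Whether each listed gene is imprinted in the heart was not measured. There were 7 called higher and 1 lower, where 14.9% of all tested genes were called higher and 13.9% lower. Of the 7, Slc22a18 and Tspan32 passed the filter only through the hSRY-ON hearts. The median log2 fold change of the list was 0.16, beside 0.0026 over all tested genes. Cobl, an actin nucleator, and Ddc, which makes dopamine and serotonin from their precursors, were called higher. Ddc was higher by 1.69 and read 10.08, 10.31 and 10.51 in hSRY-OFF and 11.78, 11.94 and 12.26 in hSRY-ON hearts, with no overlap (adjusted p = 0.00070). Cobl read 5.30, 5.06 and 5.85 against 7.48, 7.50 and 7.28 in hSRY-ON hearts, and was detected in only 1 hSRY-OFF heart, so that its fitted log2 fold change of 2.02 was taken against values near background (adjusted p = 0.00072). Qpct, which forms pyroglutamate at peptide ends, was higher by 1.09 (adjusted p = 0.00264). Slc22a18, a transporter of the Cdkn1c domain, was detected in 0 hSRY-OFF and 3 hSRY-ON hearts and was at least 1.64-fold higher (adjusted p = 0.00839). Blcap fell by 0.64 on the log2 scale (adjusted p = 0.0125).

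**Figure D4:**
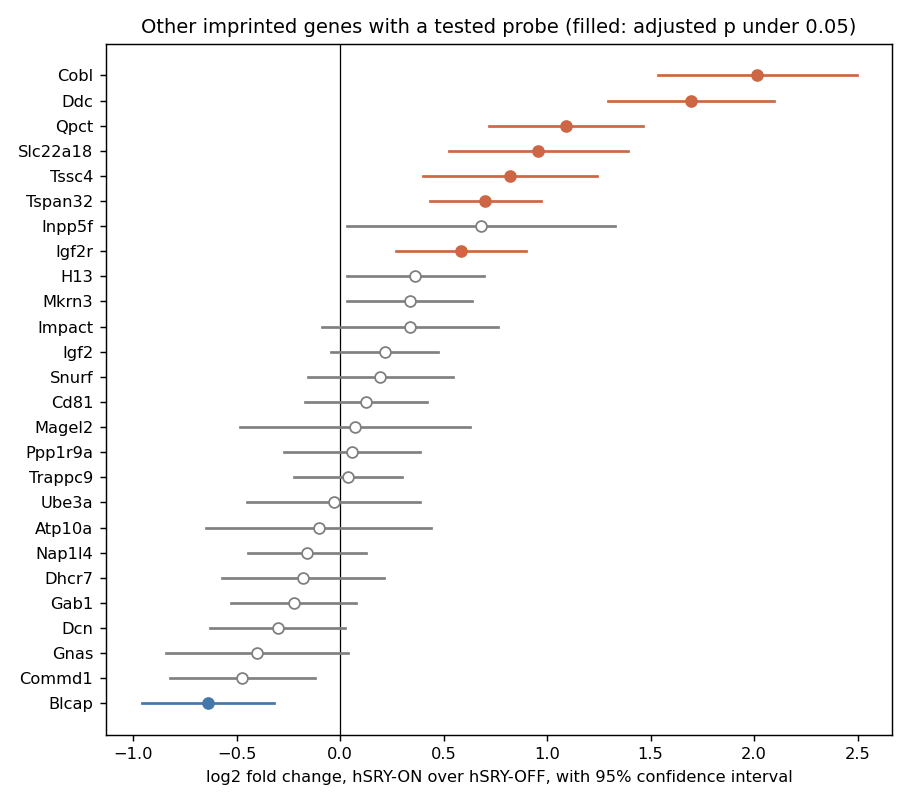
Log2 fold change (hSRY-ON over hSRY-OFF) of the 26 other imprinted genes with a tested probe, with 95% confidence intervals from limma, filled where the adjusted p-value was under 0.05. The 7 genes called higher include Ddc and Cobl, Blcap was called lower, and in hSRY-OFF Slc22a18 and Tspan32 were detected in 0 hearts and Cobl in 1.

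Igf2, the fetal growth factor that shares enhancers with H19 and is expressed from the opposite copy, was not called. It read 14.83, 14.78 and 14.74 in hSRY-OFF and 15.03, 14.92 and 15.05 in hSRY-ON hearts, so the groups did not overlap after normalization. The bead intensities before it did overlap. They were 32420, 33720 and 23990 in hSRY-OFF and 31670, 30700 and 31340 in hSRY-ON hearts. The log2 fold change was 0.21 (95% confidence interval -0.04 to 0.47, adjusted p = 0.193), and of the 16 settings 1 called it, an intensity trend in the fit (adjusted p = 0.0229). Igf2r, the receptor that clears IGF2, read 11.42, 11.09 and 11.45 in hSRY-OFF and 11.87, 11.95 and 11.89 in hSRY-ON hearts, and was higher by 0.58 (adjusted p = 0.0168). Of the other genes in the same domains, Rtl1 and Dio3 of the Dlk1 domain, Usp29 next to Peg3, and Phlda2 near Cdkn1c were detected on 0 arrays, and Kcnq1 on 1. Magel2, next to Ndn, was near background, with a log2 fold change of 0.073 (adjusted p = 0.849). Copg2, Rian and Snrpn matched no symbol of the array.

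A network of 15 imprinted genes known to be expressed together had 12 tested genes, of which 7 were called higher and 0 lower, beside 14.9% and 13.9% of all tested genes, and 2 were called higher without normalization. It shares 8 of its tested genes with the set described here, so its count is no separate evidence. Of the 4 others, Igf2r was the 1 called, Igf2 was not, and Dcn (-0.30, adjusted p = 0.150) and Gnas (-0.40, adjusted p = 0.154) had values below 0.

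Imprinted genes lie in clusters, so the genes within 500 kb of each member were also counted, by their positions on GRCm38.p6. Of 76 neighbours on the array 36 were tested, and 12 were called higher and 3 lower, which is 41.7% beside 28.8% of all tested genes. That share includes Slc22a18, Tspan32, Cpa4 and Ikzf1, each detected in 0 hSRY-OFF and 3 hSRY-ON hearts. They passed the filter only through the group in which they were higher. The 15 calls fell to 9 without any 1 of the hSRY-ON hearts or with detection on all 6 arrays, and to 8 without normalization. Cobl, Ddc, Slc22a18, Tssc4 and Tspan32 are counted both here and among the 7 other imprinted genes called higher. Around Grb10, 3 of 4 were called higher, namely Cobl, Ddc and Ikzf1, a lymphoid transcription factor detected in 0 hSRY-OFF and 3 hSRY-ON hearts and at least 1.11-fold higher, and Fignl1 was not called (-0.21). Ddc lies 32.4 kb from Grb10 and has a transcript imprinted in the heart with paternal expression. The Ddc probe moved in the same direction as the maternally expressed Grb10, but whether it reads that transcript was not determined. Around Cdkn1c, 5 of 11 were called higher and 0 lower, led by Tnfrsf22, a decoy receptor, at 1.29 (adjusted p = 0.00212). Around H19, Tssc4 and Tspan32 were called higher, while Dusp8 and Tnni2, the inhibitory troponin of fast skeletal muscle, were called lower, the last by -1.91 (adjusted p = 0.00056). Next to Mest, both directions were present, since Cpa4 was at least 4.79-fold higher and Cpa1, another carboxypeptidase, was lower (-1.83, adjusted p = 0.00168). Plagl1 had Ltv1 (0.51) and Deadc1, now Adat2 (0.63, adjusted p = 0.0286), called higher of 5 tested, and Peg3 had 5730403M16Rik, now Zfp954 (0.73, adjusted p = 0.0189), of 2. The call of Deadc1 was lost under 6 settings, 5 of them the omission of a heart, and that of 5730403M16Rik under 3. Of 2 tested genes near Ndn none was called, and none near Dlk1 was tested. Genes between H19 and Cdkn1c are neighbours of both, and neighbours were few for most members.

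**Figure D5:**
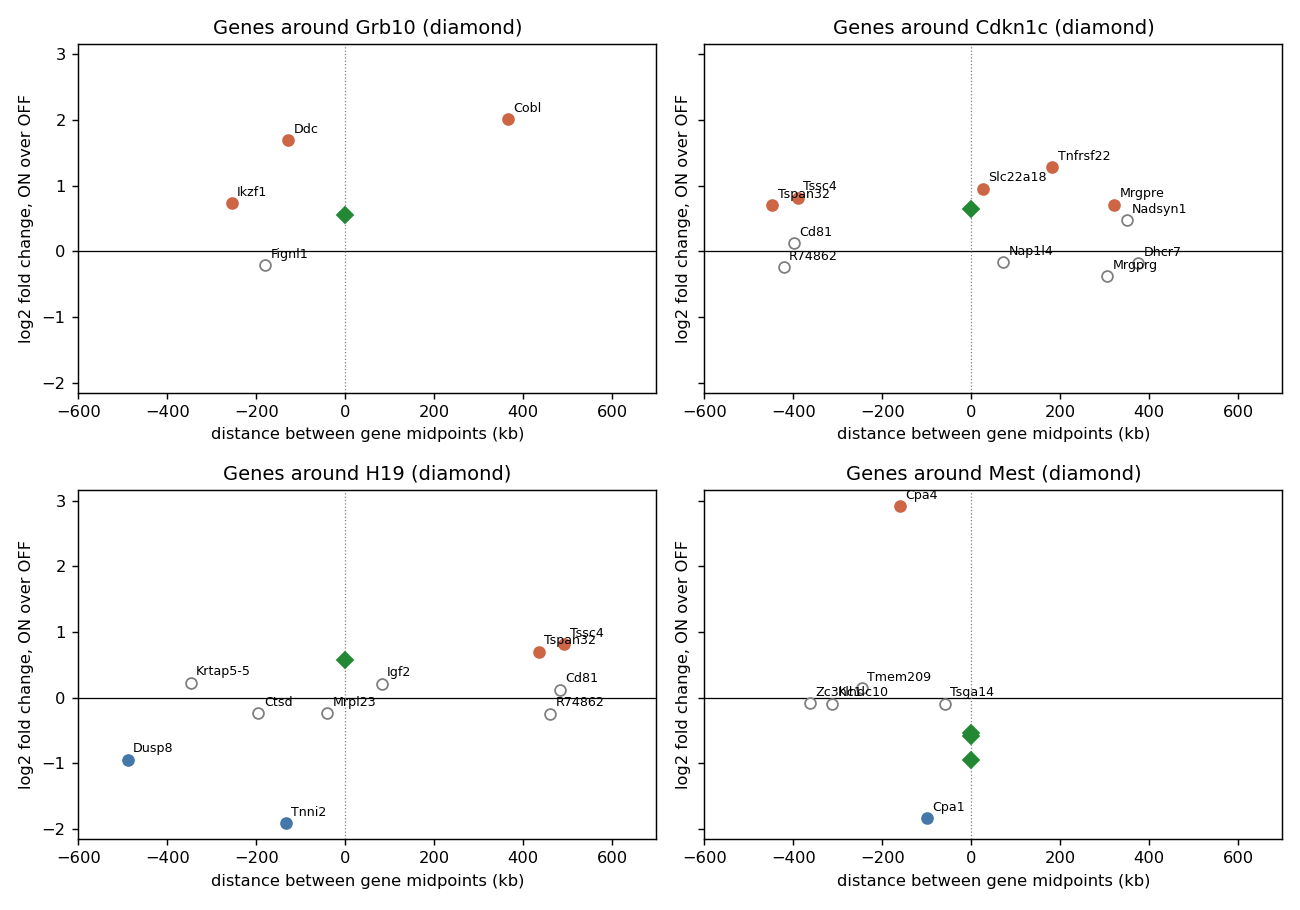
Log2 fold change (hSRY-ON over hSRY-OFF) of tested genes against the distance between their midpoint and that of Grb10, Cdkn1c, H19 or Mest, in kb, with orange for called higher, blue for called lower, open grey for not called and green diamonds for the tested probes of the gene itself. Around Grb10, 3 of 4 genes lie above 0 and were called, while calls in both directions surround H19 and Mest.

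The pathways in which single members act were counted with lists of their partners, each to be read against the 14.9% of all tested genes called higher and the 13.9% called lower. Around Grb10, of 12 tested genes of insulin and IGF receptor signaling, 1 was called higher and 3 lower. Igf1r, the IGF1 receptor, was higher by 1.22 with a standard error of 0.16 (adjusted p = 0.00186), and Grb14, the closest relative of Grb10 on this list, was lower by -2.47 with a standard error of 0.25 (adjusted p = 0.00072). Tsc2, a brake on mTOR, changed by -0.42 (adjusted p = 0.0329), a call lost under 7 of 16 settings, 4 of them the omission of a heart. Akt2, a kinase downstream of the insulin receptor, was at least 1.28-fold lower, since no hSRY-ON heart had it well above background, and its call was lost under 3 of the 11 settings that could fit it.

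Around Dlk1, of 14 tested genes of Notch signaling, 1 was called higher and 4 lower, with a list median of -0.43. The lower calls numbered 2 under scaling in the manner of TCC, without a probe filter, without hSRY-OFF replicate 1 and without hSRY-ON replicate 1, and 1 without normalization. Dlk2, the paralog of Dlk1, was higher by 1.05 (adjusted p = 0.00256). The Notch target genes Hey2 (-0.79, adjusted p = 0.00823), Nrarp (-0.67, adjusted p = 0.00886) and Hes1 (-0.61, adjusted p = 0.0462) and the receptor Notch3 (-0.49, adjusted p = 0.0387) were lower. The calls of Hes1 and Notch3 were lost under 8 of 16 settings each, 5 of them the omission of a heart in the case of Hes1, so these are near the threshold. Endothelium, in which Notch is active, had 3 of 7 marker genes called lower, beside 13.9% of all tested genes, among them Cdh5 (-0.72, adjusted p = 0.0109). Emcn was the 1 called higher (0.53, adjusted p = 0.0255), and the part of these genes in the Notch values was not tested.

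Around Cdkn1c, 9 cyclins, kinases and their targets were tested, and Ccnd1, the cyclin D1 gene, was the 1 called, lower by -0.67 (adjusted p = 0.0427), a call that was lost under 8 of 16 settings. Of 11 tested genes that maintain imprints, Uhrf1, which brings DNA methyltransferase to newly made DNA, was the 1 called (-0.98, adjusted p = 0.0439), and 6 settings lost it. Zfp57 (-0.20, adjusted p = 0.417), Trim28 (0.13, adjusted p = 0.423) and Dnmt1 (-0.36, adjusted p = 0.110) were not called. Of 6 other fetal growth genes, 3 were called higher and 0 lower. They were Igf2bp3 (1.36, adjusted p = 0.00122) and Igf2bp2 (0.73, adjusted p = 0.00830), which bind Igf2 messenger RNA, and Gpc3 (0.59, adjusted p = 0.0111), a heparan sulfate proteoglycan that restrains growth. Over all these lists without the 10 genes, 22 of 77 tested genes were called, 12 higher and 10 lower, or 28.6% beside the 28.8% of all tested genes. Without normalization the calls of Blcap, Igf2r, Igf2bp2, Gpc3 and Nrarp were lost as well.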

How the data were processed

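Total RNA of 6 hearts was hybridized to MouseRef-8 v2.0 BeadChips, 1 array per heart. The authors deposited the non-normalized mean bead intensity of each probe and a detection p-value per array. The labels name limma for processing and the methods TCC, and no genome build enters the values. From the intensities, neqc of limma 3.58.1 in R 4.3.3 corrected the background, added an offset of 16, quantile normalized and took log2. Probes with a detection p-value under 0.05 on at least 3 of 6 arrays were tested with lmFit and eBayes, with group as the only term. A gene in a list is its brightest probe. A bound for a probe not above background in a group uses the lowest signal of the detected probes of each array, and holds only under this background correction. Alternative settings gave log2 fold changes as small as 0.29 for Slc22a18, 1.17 for Cpa4 and -0.20 for Akt2, each a smaller change than its bound. For labels, 14307 symbols matched RefSeq by symbol, 2927 by synonym and 904 not. Figures used Python 3.11.15 and matplotlib 3.10.9.

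Members and lists were chosen with earlier results of these data known. The text names every probe of the members, up to 4 called genes each way per list, domain genes, the called neighbour with the largest change, the leading called marker, and a few others after their values were seen. In simulated data for 3 hSRY-ON and 3 hSRY-OFF hearts, with 12136 probes tested, 69 of 100 probes changed by 1 on the log2 scale and 92 of 100 changed by 2 were called, with 16 false calls. The changes were planted only in probes detected on all 6 arrays, and in far fewer probes than the 3567 called in the data. These counts therefore do not carry over to probes near background or to the false calls in the data. With 3 arrays a group, their number limits the precision, and an exact permutation test of a single value could not go below 0.1. The methods describe biological triplicates, and the labels give no litter, slide or scan. Alternatives were background, normalization, filter, spread, replicate block and the omission of each heart.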

Additional observations from a re-analysis of the deposited data

How the results depend on the processing

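The comparison rested on normalization between arrays more than on any other choice. Without it, 1897 in place of 3567 probes were called over the array, 38.5% of them higher in place of 50.1%, 2 imprinted growth probes were called higher and 1 lower, and 11 listed genes in place of 22 and 8 neighbours in place of 15 were called. The same setting gave 4 higher and 0 lower calls among the other imprinted genes, and 2 higher calls in the imprinted gene network. With detection on all 6 arrays, 9 neighbours and, among the other imprinted genes, 4 higher and 2 lower were called. No background correction, normexp with an offset of 50, scaling to the median of detected probes, scaling in the manner of TCC and detection at 0.01 each gave 2 lower calls among the other imprinted genes, and an intensity trend gave 3, with 1 lower call in the network.

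Without 1 heart in turn, between 2206 and 3669 probes were called, the fewest without hSRY-OFF replicate 1 and 2255 without hSRY-ON replicate 1. Higher calls among the imprinted growth probes ranged from 4 to 6 and lower calls from 0 to 2, the 2 being Mest without hSRY-OFF replicate 3. Calls ranged from 15 to 23 for listed genes, from 9 to 14 for neighbours, with 9 without each hSRY-ON heart, and among the other imprinted genes from 5 to 8 higher and 1 to 3 lower, the 3 without hSRY-OFF replicate 3. The network had 5 to 7 higher and 0 to 1 lower calls. The log2 fold change of Ndn ran from -0.30 without hSRY-OFF replicate 3 to 0.013 without hSRY-ON replicate 2, and was 0.0029 without hSRY-OFF replicate 2. That of Magel2 ran from -0.13 without hSRY-OFF replicate 1 to 0.20 without hSRY-ON replicate 3, and was -0.047 without normalization. The cause of these shifts was not tested.

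Of 156 values of the 10 imprinted growth probes under alternatives, 141 kept direction and call, 10 lost the call, 3 gained it and 2 turned. Plagl1 could not be fitted without any one hSRY-ON heart or with detection on all 6 arrays, since it was detected on 3. Same-numbered hearts did not deviate together over the tested probes (r = -0.025, 0.038 and -0.066). These values cannot tell whether the numbers mark a shared litter, slide or scan, which the labels do not give. With replicate number as a block, 2842 probes were called in place of 3567, and among the imprinted growth probes Dlk1 lost its call (adjusted p = 0.0861).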
